A study of Mus musculus with 7 samples.

Results

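The Hedgehog pathway genes examined here were *Shh*, *Ptch1*, *Boc*, *Hhip*, *Smo*, *Sufu*, *Gli1*, *Gli2* and *Gli3*. They were chosen by name, as the ligand, its receptors, the transducer Smo, the Gli transcription factors and their regulators, since the pathway is known to affect basal radial glia. All 9 symbols were found among the 38124 genes of the count table. The data are RNA-Seq counts of 7 libraries of High RFP cells from E15.5 mouse neocortex, sorted 48 hr after *in utero* electroporation at E13.5. The embryos of both groups carried *Tis21*-CreERT2, in which the promoter of *Tis21* drives a Cre that tamoxifen activates, so that recombination is directed to apical radial glia that generate basal progenitors (BPs) and to their progeny, and according to the methods were heterozygous and exposed to tamoxifen. The 3 Control libraries came from neocortex given a construct with a floxed membrane GFP followed by nuclear RFP, and the 4 libraries labelled Sox9 came from neocortex given the same construct with the Sox9 coding sequence placed before the nuclear RFP. Cortices of several embryos and mothers were combined for each sort, and the CAG promoter of the plasmid drives Sox9 wherever recombination has occurred.

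In the Hedgehog pathway, the ligand Shh binds the receptor Ptch1 with the help of co-receptors such as Boc, Cdon and Gas1, which relieves the inhibition of Smo at the primary cilium. Without ligand, Sufu retains the Gli proteins and Gli3 is cut into a transcriptional repressor, whereas active Smo lets Gli2 and then Gli1 act as activators. *Gli1*, *Ptch1* and *Hhip* are themselves textbook targets of the pathway, and in the dorsal telencephalon *Gli3* is expressed by radial glia, where its repressor restrains ventral fates.

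The libraries held from 4429704 to 12907778 counts in genes. The level of *Sox9* mRNA itself did not rise with the label Sox9, at 40.0 ± 8.33 (SD, n = 4) CPM against 63.9 ± 27.5 (SD, n = 3) in Control (log2 fold change -0.68, SE 0.25, adjusted p = 0.0493, not called), so that group names refer to the labels. By qPCR of cells sorted in the same way, the paper reports the highest *Sox9* mRNA in High RFP cells given the Sox9 construct. It reports almost none in High RFP cells given the control construct. Why the counts per gene differ from this was not tested. CPM denotes counts relative to the library total after TMM scaling. Markers of intermediate progenitors summed to 213 to 245 CPM in Control and 127 to 156 CPM in the libraries labelled Sox9, where *Eomes* and *Btg2* of the 5 markers were called lower and none was at 0 in every library. Neuronal markers, of which none of 7 was called, summed to 13247 to 16606 and 12286 to 14275 CPM, so the sorted cells contained abundant neuronal RNA in both groups.

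Of the 9 Hedgehog genes, 7 passed edgeR's filter on low counts, and 1 of these, *Gli3*, was called lower and none higher in the libraries labelled Sox9 (edgeR's quasi-likelihood test, two-sided, Benjamini-Hochberg adjusted p-value under 0.01 over all genes tested). Among the 14267 protein-coding genes tested, 3.88% were called lower and 9.96% higher. At an unadjusted p-value under 0.05, 5 of the 7 would pass, namely *Gli3*, *Gli2*, *Ptch1*, *Boc* and *Hhip*, as would 42.4% of all protein-coding genes tested. *Hhip* passed the filter only through the libraries labelled Sox9, so that its place in this count and the next is no support for a difference. In 5 of the 7 the groups did not overlap, with *Ptch1* and *Hhip* higher and *Gli2*, *Gli3* and *Smo* lower in every library labelled Sox9 than in any Control library. Such separation was seen upwards for 19.8% and downwards for 18.4% of all protein-coding genes tested. The median log2 fold change was -0.61 over the 7 genes and -0.06 over all protein-coding genes tested. In these bulk samples, fewer cells of a type and less RNA per cell cannot be told apart.

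**Figure D1:**
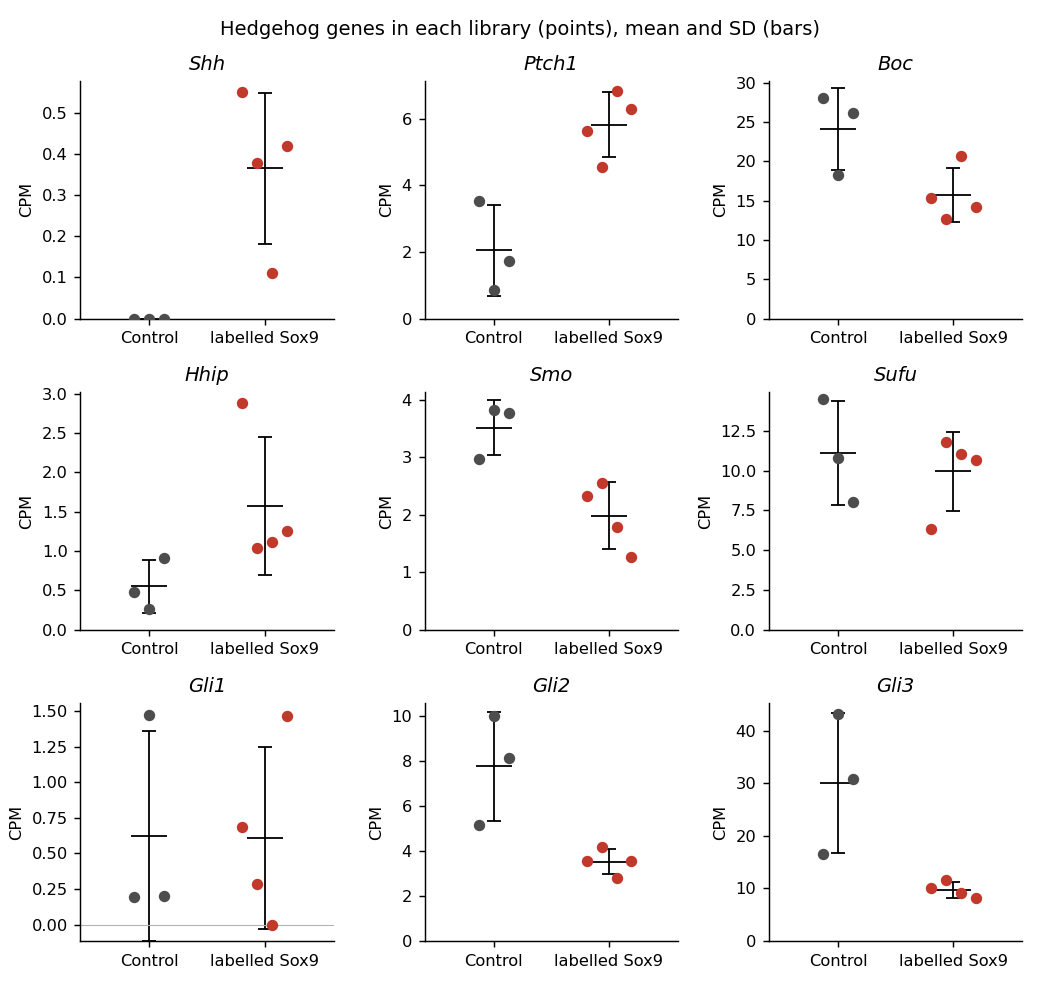
Expression level in CPM (y axes, linear) of the 9 Hedgehog genes in the 3 Control libraries and the 4 libraries labelled Sox9. Each point is 1 library, and bars are the mean and SD. *Gli3*, *Gli2* and *Smo* were lower and *Ptch1* and *Hhip* higher in every library labelled Sox9 than in any Control library, whereas *Shh* had no counts in Control.

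The DNA just upstream of the start site is shown for the only gene called (*Gli3*), for *Ptch1*, of the 2 genes with a positive log2 fold change the one with more counts, and for the only promoter of the set with a match to a SOX core (*Sufu*). Of the 9 genes, 6 had an entry in the RefSeq promoter table, whose build GRCm38.p6 is a patch release of the GRCm38 assembly named in the submitters' processing notes. The windows of *Gli3* and *Ptch1* end at RefSeq starts that lie inside the span of the gene in the GENCODE annotation. Each line gives the 250 bases before the start site, 5′ to 3′ on the strand of the gene, and capitals mark a match to either motif searched.
Gli3, chr13:15463473-15463722, plus strand: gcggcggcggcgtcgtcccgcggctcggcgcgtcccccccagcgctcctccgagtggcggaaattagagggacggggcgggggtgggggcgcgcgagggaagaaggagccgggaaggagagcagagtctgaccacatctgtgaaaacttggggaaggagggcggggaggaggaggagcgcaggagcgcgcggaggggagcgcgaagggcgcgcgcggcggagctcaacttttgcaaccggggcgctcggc
Ptch1, chr13:63565736-63565985, minus strand: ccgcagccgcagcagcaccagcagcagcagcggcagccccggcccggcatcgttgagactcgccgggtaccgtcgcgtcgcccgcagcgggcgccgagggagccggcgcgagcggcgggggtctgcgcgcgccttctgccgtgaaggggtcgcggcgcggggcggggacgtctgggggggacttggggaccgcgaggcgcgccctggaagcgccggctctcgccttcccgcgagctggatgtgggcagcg
Sufu, chr19:46396646-46396895, plus strand: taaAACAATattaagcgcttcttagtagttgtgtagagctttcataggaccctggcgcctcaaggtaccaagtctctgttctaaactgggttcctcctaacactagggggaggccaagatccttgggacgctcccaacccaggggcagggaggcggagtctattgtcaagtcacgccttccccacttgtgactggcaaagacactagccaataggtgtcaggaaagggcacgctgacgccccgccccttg

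The motifs searched were the Gli consensus GACCACCCA and the SOX core AACAAT, on both strands. None of the 6 windows held the Gli consensus, which occurred in 0.225% of all 32851 promoter windows of this length. The SOX core occurred in 1 of the 6, that of *Sufu*, and in 9.42% of all windows. The windows of *Gli3* and *Ptch1* were rich in G and C, at 72.8% and 78.4% against a median of 52.4% over all windows, and that of *Sufu* was at 54.0%. A match or its absence in these windows says nothing about binding of either factor.

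Of the Gli factors, 1 was called. *Gli3* (ENSMUSG00000021318, chromosome 13 of mm10, 15463235 to 15730026, forward strand) encodes the main repressor of the pathway. It had 16.5, 43.2 and 30.8 CPM in Control replicates 1, 2 and 4 and 10.03, 11.5, 9.05 and 8.18 CPM in replicates 1 to 4 labelled Sox9. All 4 libraries labelled Sox9 were thus below the lowest Control library, and they varied less among themselves than the Control libraries did. Mean CPM were 30.2 ± 13.3 (SD, n = 3) in Control and 9.70 ± 1.44 (SD, n = 4) with the label Sox9, and *Gli3* fell by 1.63 on the log2 scale (SE 0.27, edgeR adjusted p = 0.000957), so that Control was 3.09-fold higher. *Gli3* was called lower in all 14 alternative fits, with log2 fold changes from -1.94 to -1.28. An overlapping gene on the other strand, *Gm6556*, had only 12 counts in Control and 36 in the libraries labelled Sox9, against 973 and 315 for *Gli3*.

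*Gli2* (ENSMUSG00000048402, chromosome 1, 118834132 to 119053619, reverse strand), the main activator downstream of Smo, had 5.16, 9.99 and 8.14 CPM in Control and 3.57, 4.16, 2.79 and 3.57 CPM in the libraries labelled Sox9. The groups did not overlap, and the lowest Control value belonged to replicate 1, as for *Gli3*. The log2 fold change of *Gli2* was -1.14 (SE 0.31), with an adjusted p of 0.0140 that missed the threshold. Without Control replicate 1 the log2 fold change was -1.38 and *Gli2* was called (adjusted p = 0.00794), and it was also called with DESeq2 (-1.23, adjusted p = 0.00356) and without a filter (-1.23, adjusted p = 0.00316). Without Control replicate 2, its highest Control library, it was at -0.91 (adjusted p = 0.0817).

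*Gli1* (ENSMUSG00000025407, chromosome 10, 127329882 to 127341974, reverse strand), the activator whose own transcription is a readout of pathway activity, was barely counted. It had 2, 17 and 2 counts in Control and 5, 3, 0 and 7 counts in the libraries labelled Sox9. Control replicate 2 held most of the Control counts, and the groups overlapped. *Gli1* did not pass the filter, and in a fit without a filter its log2 fold change was -0.36 (SE 0.75, adjusted p = 0.747), so that no difference was detectable at this depth. *Gli1* shares 62 of its 4995 exonic bases with *Arhgap9* on the other strand (2 counts in Control, 15 in the libraries labelled Sox9) and 265 with the antisense gene *Gm47200*, for which no count was used here, and in both stretches reads could belong to either gene, since the library protocol as described does not mark strand.

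Values of radial glia markers moved with *Gli3* and *Gli2*. Of 9 such markers none was at 0 in every library and 8 passed the filter, all 8 with a negative log2 fold change (median -1.18) and 4 called lower, namely *Slc1a3*, *Vim*, *Pax6* and *Fabp7*. *Hopx*, the marker that did not pass, had 10 counts in Control and 23 in the libraries labelled Sox9, and its CPM overlapped between the groups. The summed level of the 9 markers was 551 to 1071 CPM in Control and 264 to 404 CPM in the libraries labelled Sox9, with no overlap. The part of radial glia content in the fall of *Gli3* was not tested. Among 8048 protein-coding genes with a mean of at least 10 CPM, the 3 whose log2 CPM followed *Gli3* most closely over the 7 libraries were *Bend4* (Pearson's r = 0.994), *Lrp4* (r = 0.993) and *Cdca3* (r = 0.991). All of them were called lower, with log2 fold changes of -1.31, -1.47 and -1.50. These are descriptions of likeness over 7 libraries that differ by group, and 501 genes had an r over 0.9.

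The receptor *Ptch1* and the antagonist *Hhip*, which both bind Shh, had positive log2 fold changes, but neither was called. *Ptch1* (ENSMUSG00000021466, chromosome 13, 63508328 to 63573598, reverse strand), the receptor that holds Smo inactive, had 3.54, 0.869 and 1.73 CPM in Control and 5.63, 4.54, 6.82 and 6.29 CPM in the libraries labelled Sox9. Every library labelled Sox9 was above every Control library, and the Control libraries differed among themselves by more than those labelled Sox9 did relative to their mean. The means were 2.04 ± 1.36 (SD, n = 3) and 5.82 ± 0.984 (SD, n = 4) CPM, with a log2 fold change of 1.50 (SE 0.43) and an adjusted p of 0.0162, so that *Ptch1* was not called. Without Control replicate 1, its highest Control library, the log2 fold change was 2.14 and *Ptch1* was called (adjusted p = 0.00429), as with DESeq2 (1.43, adjusted p = 0.00580) and without a filter (1.42, adjusted p = 0.00323). Without Control replicate 2 it was 1.14 (adjusted p = 0.0555), and with cyclic loess normalization 1.03 (adjusted p = 0.0997).

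*Hhip* (ENSMUSG00000064325, chromosome 8, 79965851 to 80058006, reverse strand), a membrane protein that sequesters the ligand, had 5, 3 and 9 counts in Control and 21, 11, 10 and 6 counts in the libraries labelled Sox9. In CPM these were 0.478, 0.261 and 0.915 against 2.88, 1.04, 1.12 and 1.26. The groups did not overlap, although replicate 1 labelled Sox9 stood far above the other three. No Control library reached the level of the filter for *Hhip* (0.956 CPM before TMM scaling, required in at least 3 libraries). The log2 fold change was 1.50 (SE 0.59, adjusted p = 0.0635), and it turned to -0.17 (adjusted p = 0.840) with cyclic loess normalization, which removes trends with expression level.

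*Boc* (ENSMUSG00000022687, chromosome 16, 44485049 to 44558897, reverse strand), the co-receptor that promotes ligand binding, was the Hedgehog gene with the highest mean level per exonic length in both groups. It had 28.1, 18.2 and 26.1 CPM in Control and 15.4, 12.7, 20.7 and 14.3 CPM in the libraries labelled Sox9. Only replicate 3 labelled Sox9 reached above the lowest Control library. The log2 fold change was -0.61 (SE 0.22, adjusted p = 0.0418), which missed the threshold, and in the fit without a filter *Boc* was called (-0.70, adjusted p = 0.00875). With at least 10 counts in every library it was at -0.47 (adjusted p = 0.192), and with cyclic loess normalization at -0.49 (adjusted p = 0.163).

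*Shh* (ENSMUSG00000002633, chromosome 5, 28456815 to 28467256, reverse strand), the ligand, had 0 counts in all 3 Control libraries and 4, 4, 1 and 2 counts in the libraries labelled Sox9. These 11 counts, scaled to CPM over the group, were 3.69-fold above the 3 counts over the group that a total of 0 in Control allows. This value leaves out the counting error of the 11 counts and is thus not a lower bound. *Shh* did not pass the filter, and in a fit without a filter its adjusted p was 0.0245, which missed the threshold. *Shh* shares 446 of its 2847 exonic bases with the antisense gene *9530036O11Rik* (5 counts in Control, 10 in the libraries labelled Sox9) and 361 with *Gm26894* (1 and 4 counts), and whether its few reads lie there is not known from counts per gene. Markers of ventral telencephalon and interneurons, the main site of *Shh* in the forebrain, summed to 4.78 to 6.12 CPM in Control and 8.94 to 14.1 CPM in the libraries labelled Sox9. Of these 10 markers 3 passed the filter, none was called and none was at 0 in every library, and their part in the counts of *Shh* was not tested.

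Between receptor and Gli factors stand Smo and Sufu. *Smo* (ENSMUSG00000001761, chromosome 6, 29735503 to 29761365, forward strand), the transmembrane transducer, had 2.96, 3.82 and 3.76 CPM in Control and 2.33, 2.55, 1.79 and 1.26 CPM in the libraries labelled Sox9. Each library labelled Sox9 was below each Control library. The log2 fold change was -0.79 (SE 0.37, adjusted p = 0.114) and was not called. With cyclic loess normalization it was -1.56 (adjusted p = 0.0122). *Sufu* (ENSMUSG00000025231, chromosome 19, 46396896 to 46488804, forward strand), the cytoplasmic inhibitor of the Gli proteins, had 14.5, 10.8 and 8.04 CPM in Control and 6.32, 11.8, 11.1 and 10.7 CPM in the libraries labelled Sox9. The groups overlapped, and the log2 fold change of -0.15 was smaller than its SE of 0.27 (adjusted p = 0.701).

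The weakly counted genes belonged to a part of the data in which the median gene was higher in the libraries labelled Sox9. Below an average log2 CPM of 1, a range of 2076 protein-coding genes where *Hhip* lies, the median log2 fold change was 1.53, with 21.6% called higher and 0.145% lower. Among the 3500 genes between 1 and 3, where *Ptch1*, *Smo* and *Gli2* lie, it was 0.60, with 22.5% called higher and 1.20% lower. The log2 fold change of *Hhip* was thus close to the median of genes at its level, that of *Ptch1* was within the middle range of such genes (-0.08 to 1.59 from the lower to the upper quartile), and those of *Smo* and *Gli2* were below its lower end. Among the 5565 genes between 3 and 6, where *Gli3*, *Sufu* and *Boc* lie, the median was -0.13 and the quartiles were -0.34 and 0.10, with 4.60% called lower, and *Gli3* and *Boc* lay below that range.

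**Figure D2:**
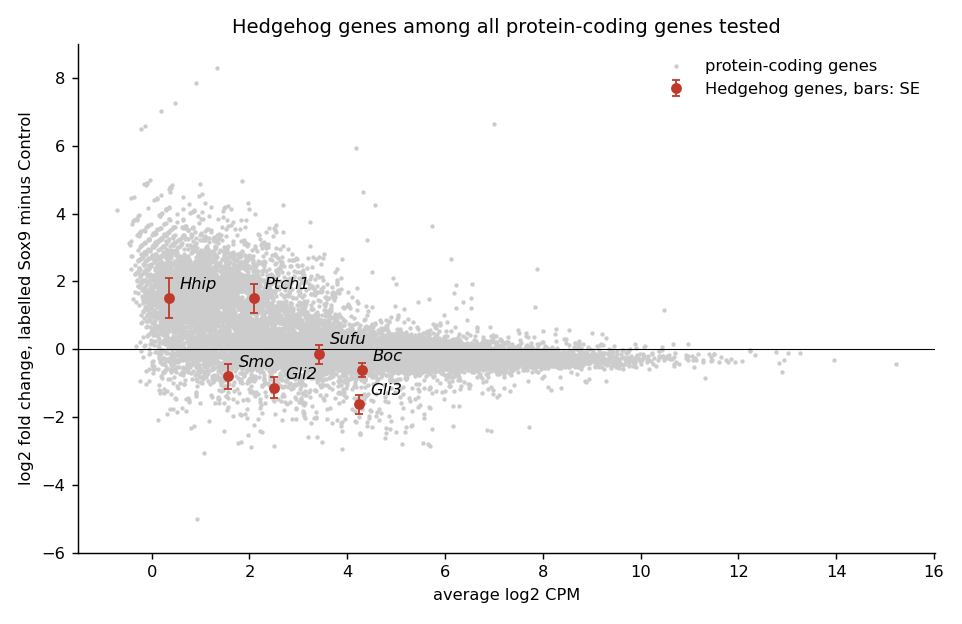
Log2 fold change (labelled Sox9 minus Control, y axis) against average log2 CPM (x axis) for the 14267 protein-coding genes tested (grey) and the 7 Hedgehog genes that passed the filter (red, bars are standard errors). *Hhip* and *Ptch1* sit within the upward cloud of weakly counted genes, whereas *Gli3* at -1.63 sits below the dense band of genes at its level.

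Levels of different genes were compared per kilobase of exon, as CPM divided by the exonic length. In Control the order was *Boc* (5.43 ± 1.17, SD, n = 3), *Gli3* (3.15 ± 1.39), *Sufu* (1.44 ± 0.424), *Gli2* (1.13 ± 0.355), *Smo* (0.626 ± 0.0855), *Ptch1* (0.144 ± 0.0960), *Gli1* (0.125 ± 0.148), *Hhip* (0.0607 ± 0.0367) and *Shh* (0). Neighbours in this order overlapped in their library values except for *Gli2* over *Smo*, *Smo* over *Ptch1* and *Hhip* over *Shh*. In the libraries labelled Sox9 the order was *Boc* (3.54 ± 0.780, SD, n = 4), *Sufu* (1.30 ± 0.323), *Gli3* (1.01 ± 0.150), *Gli2* (0.513 ± 0.0814), *Ptch1* (0.410 ± 0.0694), *Smo* (0.353 ± 0.103), *Hhip* (0.174 ± 0.0967), *Shh* (0.128 ± 0.0645) and *Gli1* (0.122 ± 0.128). Here only *Boc* over *Sufu* and *Gli3* over *Gli2* were separated from their lower neighbour. By their means *Gli3* stood below *Sufu* and *Ptch1* above *Smo* in the libraries labelled Sox9, the reverse of Control, but both pairs overlapped there.

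Olfactory receptor genes, which have no known role in these cells, gave a measure of the level at which genes without expected expression were counted. Summed over 1037 genes, they had 0.0287 ± 0.00554 (SD, n = 3) CPM per kilobase of exon in Control against 0.0922 ± 0.0137 (SD, n = 4) with the label Sox9, a ratio of 3.21 between the means. Beside this, the mean levels in the libraries labelled Sox9 were 0.122 for *Gli1*, 0.128 for *Shh*, 0.174 for *Hhip* and 0.410 for *Ptch1* on the same scale. The part of this rise in the values of the weakly counted Hedgehog genes was not tested.

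Markers of other cell types were also counted in these cells sorted for high RFP, and in part moved with the label. Markers of endothelial cells summed to 2.01 to 9.38 CPM in Control and 9.86 to 21.6 CPM in the libraries labelled Sox9, with 4 of 5 tested and *Kdr* called higher. Those of mural and meningeal cells summed to 7.26 to 8.52 and 10.8 to 20.6 CPM, with 5 of 6 tested and *Col1a1* called higher. Neither sum overlapped between the groups. *Kdr* and *Col1a1* passed the filter through the libraries labelled Sox9, with 2 and 1 Control libraries above its level. The sums overlapped for microglia (8.03 to 26.0 and 10.3 to 46.6 CPM, *C1qa* of 5 called higher after passing the filter only through the libraries labelled Sox9) and for erythroid cells (1.82 to 19.4 and 10.9 to 58.7 CPM, none of 4 called). Astrocyte markers summed to 30.5 to 56.7 CPM in Control and 22.8 to 28.8 CPM in the libraries labelled Sox9, with *Slc1a2* called higher, *S100b* higher after passing only through the libraries labelled Sox9, and *Aldh1l1* lower of 4 tested. No marker of these lists was at 0 in every library, and their part in the values of *Ptch1*, *Hhip* and *Lrp2* was not tested.

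**Figure D3:**
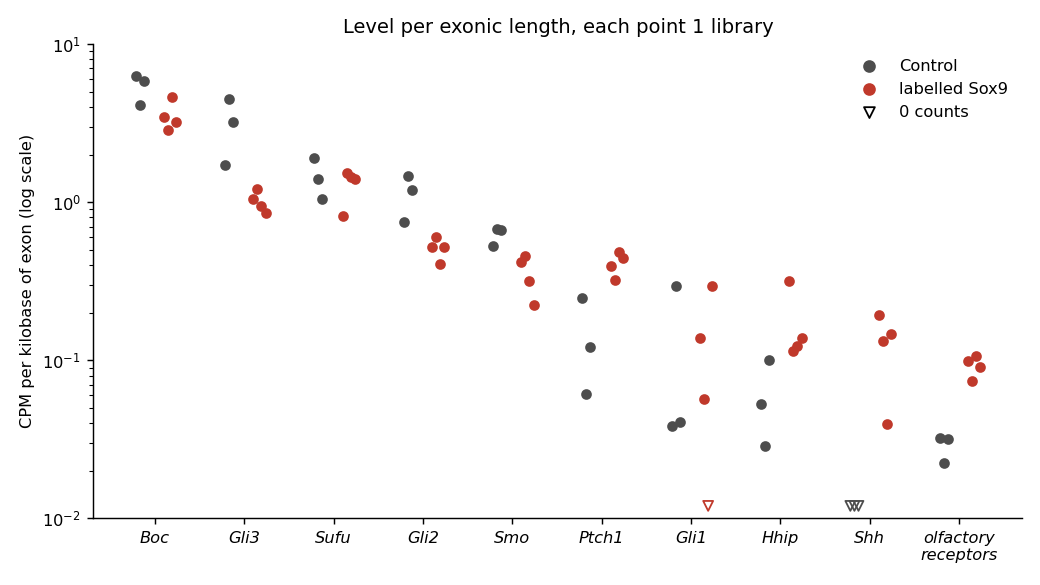
Level in CPM per kilobase of exon (y axis, log scale) of each Hedgehog gene and of the summed olfactory receptor genes, each point 1 library, dark grey for Control and red for libraries labelled Sox9. Open triangles mark libraries with 0 counts and are placed at the bottom of the axis. *Boc*, *Gli3*, *Sufu* and *Gli2* lie well above the olfactory receptor genes in both groups, while *Shh*, *Gli1* and *Hhip* come close to them.

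Ratios of counts within a library do not depend on how libraries are scaled. The ratio of *Smo* to *Ptch1* was 0.838, 4.40 and 2.18 in Control, against 0.415, 0.562, 0.262 and 0.200 in the libraries labelled Sox9. It was lower in every library labelled Sox9, with geometric means of 2.00 and 0.333 and a log2 difference of -2.59 (two-sided p = 0.0286 from an exact permutation test, which 3 against 4 libraries cannot go below, and 0.0857 after Benjamini-Hochberg adjustment over the 3 ratios compared). The ratio of *Gli2* to *Gli3* was 0.312, 0.231 and 0.264 in Control, against 0.356, 0.361, 0.309 and 0.436 in the libraries labelled Sox9. Replicate 3 labelled Sox9 fell just below Control replicate 1, and the log2 difference of 0.44 did not pass (exact permutation test, two-sided, p = 0.0857, adjusted 0.129). The ratio of *Boc* to its sister co-receptor *Cdon* overlapped between groups, with geometric means of 1.58 and 2.06 (exact permutation test, two-sided, p = 0.314, adjusted 0.314).

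**Figure D4:**
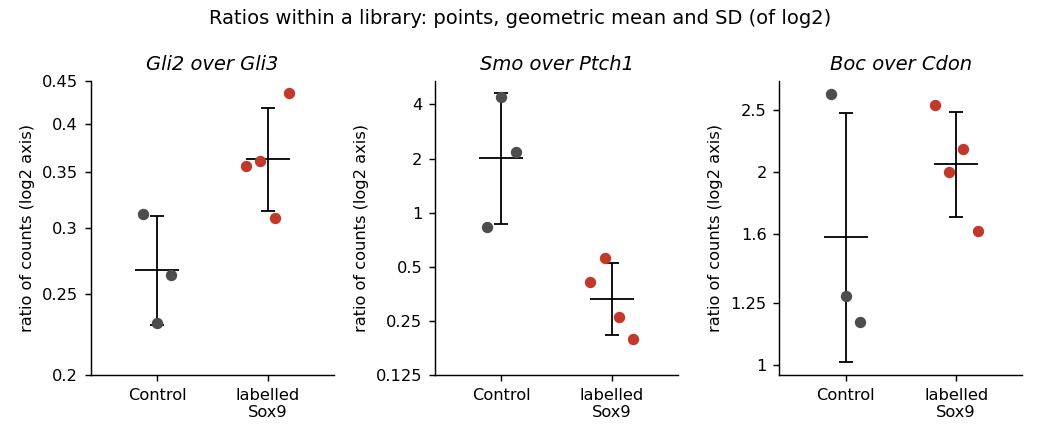
Ratios of counts of *Gli2* to *Gli3*, *Smo* to *Ptch1* and *Boc* to *Cdon* in each library (points, y axes on a log2 scale), with the geometric mean and the SD of the log2 ratio. The 4 libraries labelled Sox9 lie below all 3 Control libraries for *Smo* to *Ptch1*, from 0.200 to 0.562 against 0.838 to 4.40.

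Of 48 other genes of the pathway, grouped by role, 45 passed the filter, with 4 called higher and 3 lower against 9.96% and 3.88% of all protein-coding genes, and a median log2 fold change of 0.01. Of the 4 called higher, *Scube2* and *Lrp2* had an average log2 CPM between 1 and 3, where 22.5% of protein-coding genes were called higher. *Olig2* lay below 1 and *Hhat* between 3 and 6, where 21.6% and 3.05% were called higher. The groups did not overlap for 8 of the 45 upwards and 9 downwards, near the 19.8% and 18.4% of all protein-coding genes tested. Among those upwards, *Olig2*, *Nkx6-1* and *Foxf1* had no Control library at the level of the filter, and *Scube2* had 1. They passed through the libraries labelled Sox9, so that their place in these counts is no support for a difference. Among other ligands and genes that process or release them, 6 of 7 passed and 2 were called higher. *Hhat*, the acyltransferase that attaches palmitate to Hedgehog ligands, had 7.07, 3.48 and 6.51 CPM in Control and 20.9, 14.6, 22.0 and 16.1 CPM in the libraries labelled Sox9. Every library labelled Sox9 was above every Control library, and the log2 fold change was 1.70 (SE 0.27, adjusted p = 0.000821). *Scube2*, a secreted protein that helps to release the lipid-modified ligand, rose by 2.93 on the log2 scale, with 0.877 ± 0.538 CPM (SD, n = 3) in Control against 6.75 ± 2.28 CPM (SD, n = 4) (SE 0.48, adjusted p = 0.000878). *Scube2* passed the filter through the libraries labelled Sox9, with 1 Control library above its level. Both were also called with cyclic loess normalization, with log2 fold changes of 1.69 and 2.02. *Scube1*, *Disp1*, *Scube3* and *Ihh* had log2 fold changes of 0.02, 0.07, 0.75 and 0.59 and were not called.

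Of 4 other receptors and co-receptors, all tested, *Gas1* fell and *Lrp2* rose. *Gas1*, a membrane-anchored co-receptor whose transcription Hedgehog signalling represses, had 3.73, 9.30 and 10.6 CPM in Control and 2.06, 1.13, 1.34 and 1.47 CPM in the libraries labelled Sox9. Control replicate 1 was again the lowest of its group, as for *Gli3* and *Gli2*. Its log2 fold change was -2.40 (SE 0.41, adjusted p = 0.00110), and with cyclic loess normalization it was -2.79 (adjusted p = 0.000716). With at least 10 counts required in every library *Gas1* was not tested. *Lrp2*, a large endocytic receptor that binds Shh in the forebrain, rose by 1.96 on the log2 scale, with 2.70 ± 0.542 CPM (SD, n = 3) in Control against 10.6 ± 1.47 CPM (SD, n = 4) (SE 0.28, adjusted p = 0.000397). *Cdon*, the relative of *Boc*, was lower in every library labelled Sox9 with a log2 fold change of -1.04 (adjusted p = 0.0121) and was not called. *Cdon* was called without a filter (-1.13, adjusted p = 0.000229), with DESeq2 (-1.13, adjusted p = 0.00157) and without Control replicate 1 (-1.28, adjusted p = 0.00543), and without Control replicate 4 it was at -0.69 (adjusted p = 0.0928).

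Of 18 genes of signal transduction and Gli processing, only *Prkacb*, a catalytic subunit of the protein kinase A that primes Gli3 for processing, was called. It had 195, 168 and 166 CPM in Control and 99.2, 132, 129 and 112 CPM in the libraries labelled Sox9, a log2 fold change of -0.58 (SE 0.13, adjusted p = 0.00467). It was not called with cyclic loess normalization (-0.33, adjusted p = 0.0883), nor without Control replicate 1, 2 or 4 or replicate 1 or 4 labelled Sox9, where it lay between -0.60 and -0.47, nor with at least 10 counts in every library (-0.43, adjusted p = 0.0316). The other 17 lay between -0.38 and 0.52, with *Gsk3b* at -0.33, *Prkar1a* at -0.24, *Spop* at -0.02 and *Mgrn1* at -0.27. None of 10 genes of the primary cilium was called higher or lower with edgeR's quasi-likelihood test (1 at an unadjusted p-value under 0.05, and 0 with DESeq2), with log2 fold changes between -0.55 and 0.27 and *Kif3a*, *Inpp5e*, *Ift122* and *Ift172* at 0.05, -0.37, -0.38 and -0.0045.

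Of 9 other genes known as Gli targets, 7 passed the filter, with *Ccnd2* called lower and *Olig2* higher. *Ccnd2*, the cyclin D2 gene, had 313, 497 and 388 CPM in Control and 223, 215, 138 and 157 CPM in the libraries labelled Sox9, a log2 fold change of -1.12 (SE 0.18, adjusted p = 0.000726). *Olig2*, a factor of ventral progenitors and oligodendrocyte precursors, had 0, 2 and 0 counts in Control and 24, 6, 12 and 7 counts in the libraries labelled Sox9. *Olig2* entered the test only through the libraries labelled Sox9. Over the group this was a ratio of 24.7 in CPM, with a 95% exact binomial interval for counting error of 6.48 to 209. Its edgeR call (adjusted p = 0.00371) was lost with cyclic loess normalization (log2 fold change 0.92, adjusted p = 0.265) and without Control replicate 1 (3.93, adjusted p = 0.0153) or 4 (3.99, adjusted p = 0.0144), where the fold stayed close to its value of 4.44. Without Control replicate 2 it was kept (6.83, adjusted p = 0.00606), a fitted value against Control libraries without counts that depends on the prior count, and without replicate 1, 3 or 4 labelled Sox9 it did not pass the filter. Markers of oligodendrocyte precursors, *Olig2* among them, summed to 0.610 to 1.39 CPM in Control and 9.50 to 22.8 CPM in the libraries labelled Sox9. No Control library reached the level of the filter for *Olig1*, *Olig2*, *Pdgfra* or *Cspg4*, which passed only through the libraries labelled Sox9, while *Sox10* did not pass, and the part of this list in the value of *Olig2* was not tested. *Ccnd1*, *Mycn*, *Bcl2* and *Nkx6-1*, with log2 fold changes of 0.34, -0.25, 0.62 and 1.57, were not called, and *Nkx6-1* passed the filter only through the libraries labelled Sox9.

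**Figure D5:**
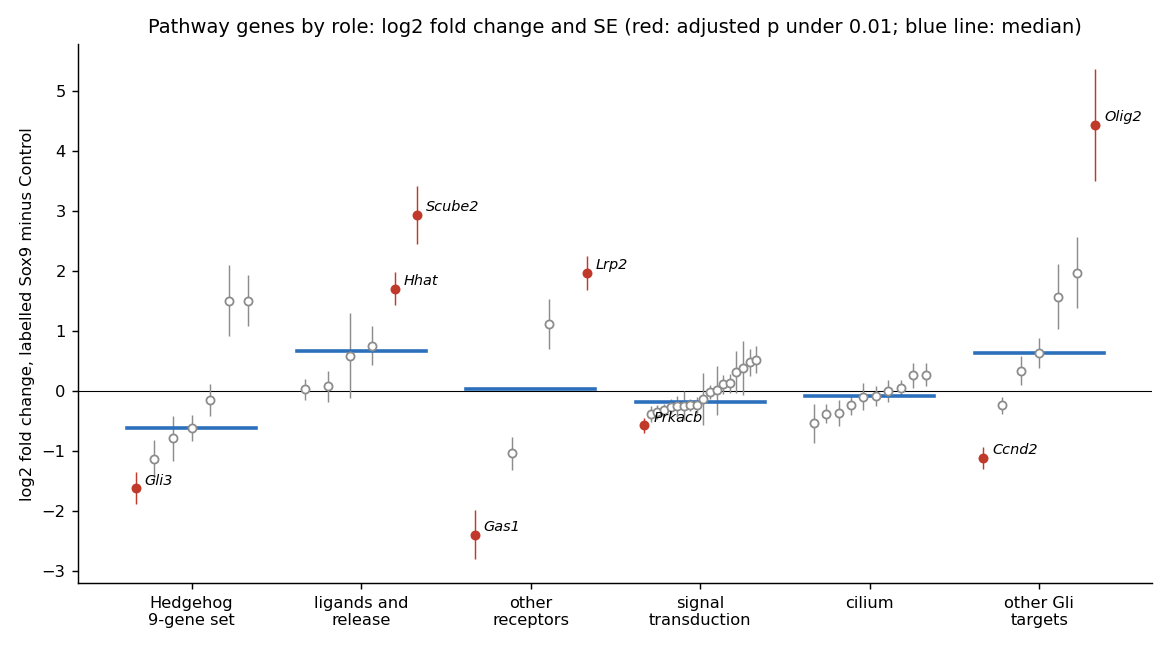
Log2 fold change (labelled Sox9 minus Control, y axis) with its SE for each tested gene of the 9-gene Hedgehog set and of 5 lists of other pathway genes. Red points have an adjusted p-value under 0.01 and blue lines are medians. *Gli3* is the only called gene of the Hedgehog set, and the genes of signal transduction (-0.58 to 0.52) and the cilium (-0.55 to 0.27) span narrower ranges than the other lists.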

How the data were processed

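RNA of sorted High RFP cells was reverse transcribed from poly-dT primers with template switching, amplified by PCR without molecular identifiers and sequenced. Per the submitters' processing notes bcl2fastq 2.17.1.14, STAR 2.5.2b and GRCm38 were used, and the methods name Ensembl release 70. The counting program and its strand setting are not given in the sources used here. The authors deposited raw read counts per gene, used for all tests, and FPKM values, used only as an alternative for ratios of genes within a library. For the 9 genes the deposited FPKM had been divided by 0.964 to 1.01 times the whole gene span, 2.33 to 31.6 times the exonic length, so levels between genes rest on counts per kilobase of exon in GENCODE M21.

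Symbols were found for 36345 of 38124 genes. The 3 Control and 4 Sox9-labelled libraries were compared with edgeR 4.0.16 (TMM, filterByExpr, quasi-likelihood test, two-sided, Benjamini-Hochberg over 16522 genes, threshold 0.01), which was tested on simulated data. DESeq2 1.42.0, limma 3.58.1 with cyclic loess, other filters, thresholds and blocks, and leaving out each library were alternatives. Named were all 9 genes, every called gene of the other pathway lists with at most 4 further ones per list by mean CPM, and the 3 genes most correlated with *Gli3*. *Foxf1* was named in addition, for how it passed the filter. The 9 genes and all lists, with the marker lists of radial glia, intermediate progenitors, neurons, ventral telencephalon, oligodendrocyte precursors, astrocytes, endothelial, mural and meningeal cells, microglia and erythroid cells, were chosen with earlier results of these data known. Same-numbered libraries did not deviate together. Intervals and floors cover counting error only. A result for 1 item is not reported here.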

Additional observations from a re-analysis of the deposited data

Results flagged for a closer look

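*Hhip* stood apart in replicate 1 labelled Sox9, at 2.88 CPM against 1.04 to 1.26 CPM in the other libraries of that group, a gap of 0.881 of the range of the group, above the 95% critical value of Dixon for 4 samples. Chance gives such a gap in about 5% of groups, and 19 groups of 4 libraries were checked. Without this library the log2 fold change of *Hhip* was 1.06 (adjusted p = 0.201, edgeR's quasi-likelihood test).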

How the results depend on the processing

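*Gli3* was called lower in all 14 alternative fits. Of the 9 genes, 1 was called higher and 3 lower without a filter (9.58% and 6.97% of all protein-coding genes), 1 and 2 with DESeq2 (10.2% and 8.79%), and 1 and 3 at an adjusted p under 0.05 (18.6% and 12.2%). *Ptch1* was called without a filter (1.42) and with DESeq2 (1.43), *Gli2* with both (-1.23 in each) and *Boc* without a filter (-0.70), where the median log2 fold change of all genes was 0.51, and 0.54 with DESeq2. *Hhip* reversed to -0.17 with cyclic loess normalization. Leaving out 1 library gave 0 to 1 called higher and 1 to 2 lower, with both extra calls (*Ptch1* and *Gli2*) without Control replicate 1. Over all protein-coding genes, these fits called 4.6% to 8.93% higher and 1.36% to 3.12% lower. With 1 library left out, the log2 fold changes ranged from 1.14 to 2.14 for *Ptch1*, -1.38 to -0.91 for *Gli2* and -0.32 to 0.07 for *Sufu*. That of *Sufu* was positive without Control replicate 1 (0.068) and without replicate 1 labelled Sox9 (0.038). The log2 difference of *Smo* to *Ptch1* ranged from -3.22 to -2.02, where 6 libraries allow no p below 0.0667 or 0.1. Of the other pathway genes, 5 were called lower without a filter, 5 with DESeq2 and 7 at an adjusted p under 0.05. With at least 10 counts in every library 2 were called higher and 1 lower (5.05% and 1.82% of all protein-coding genes). Same-numbered libraries correlated at -0.0356, 0.118 and -0.00485 in their deviations from the group means, so the numbers gave no pairing. With a replicate block by the numbers of the titles *Gli3* was at -1.52 (adjusted p = 0.00939). In that fit 1 other pathway gene was called lower, beside 1.49% of all protein-coding genes. *Gas1* (-2.23, adjusted p = 0.0185), *Prkacb* (-0.63, adjusted p = 0.0169) and *Olig2* (4.32, adjusted p = 0.0278) were not called there. With a replicate block by the numbers of the descriptions *Gli3* was at -1.49 (adjusted p = 0.00405). *Prkacb* (-0.56, adjusted p = 0.0204) and *Olig2* (4.31, adjusted p = 0.0155) were not called with that block. Depth limits *Shh*, *Gli1* and *Hhip*, with at most 21 counts in any library.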
